A study of Mus musculus with 18 samples.

Results

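Interferon response and MHC class I genes were followed as 36 genes of 23238 gene symbols in the count tables, and all 36 had a row in every table. The genes were chosen by symbol from a list made with earlier results of these data known. The list holds 7 genes of MHC class I presentation, 17 antiviral effectors, 2 genes of ISG15 conjugation, 5 genes of nucleic acid sensing and 5 transcription regulators. They were measured by 3′-end RNA sequencing in cells sorted from the small intestine of adult C57BL/6J mice: stromal cells of the intestine (IntSCs), and lymphatic endothelial cells (LECs). The study's text calls the sorted LECs small intestinal, and a figure heading calls them lacteal LECs. Lacteals are the lymphatic capillaries of the villi. By the genotype labels, WT mice were PDGFRb+-CreERT2-Tomato+ (6 IntSC and 4 LEC libraries), and KO mice carried the same transgenes with floxed Lats1 (Lats1f/f) and floxed Lats2 (Lats2 f/f) (5 IntSC and 3 LEC libraries), so the tamoxifen-inducible Cre is named in every group. The study's text likewise names Cre-carrying Tomato reporter mice, with and without the Lats1 and Lats2 deletion, as the source of the sequenced IntSCs and LECs. Its general definition of WT mice, as littermates without the Cre, differs from this, and a legend on the LECs also uses the name WT. The Pdgfrb promoter is active in fibroblasts, smooth muscle cells and pericytes, so KO LECs are LECs taken from mice whose stromal cells were the target of the deletion. Lats1 and Lats2 encode the kinases that restrain YAP and TAZ, and the study asked what follows in the stroma and in the lacteal when they are removed. Haematopoietic and epithelial cells were depleted on magnetic beads before the sort, as were CD31+ endothelial cells for IntSCs. The study's legends give 5 to 6 mice per group from 3 independent experiments for IntSCs. For LECs they give 3 to 4 mice per group from 2 experiments. These are the same ranges as the library numbers, but the labels do not tie a library to an animal or an experiment. P-values therefore measure the spread between these samples, which may in part be technical.

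Interferons bind receptor pairs at the cell surface, and kinases of the JAK family pass the signal on to the nucleus. Short sequences near the start of the target genes are read there, the interferon-stimulated response elements (ISREs) and the gamma-activated sites (GASs). The targets include enzymes and binding proteins that restrict viruses, the ubiquitin-like protein ISG15, sensors of foreign or misplaced nucleic acid, and the machinery that cuts peptides (immunoproteasome subunits), moves them into the endoplasmic reticulum (TAP) and shows them on MHC class I molecules. NLRC5 is a co-activator of class I genes. Many cells hold a low, tonic level of these transcripts without infection.

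The sequences in front of these genes were searched for both elements. Start windows of 300 bases (250 before and 50 after the transcription start; RefSeq, build GRCm38.p6, the build also called mm10) were given for 27 of the 36 members. An ISRE core, searched as GAAANNGAAA on both strands (TTTCNNTTTC on the other), was present in 12 of the 27 windows (44.4%), against 1079 of 27025 windows of all genes (3.99%). A GAS, searched as TTCNNNGAA, which reads the same on both strands, was present in 8 of 27 (29.6%) against 2582 of 27025 (9.55%). Members of the list are known interferon targets, so the first share is a description of the list and not a result of these libraries. The 7 stretches below are a selection from the 12 members with an ISRE match, shown as examples of single, paired and overlapping matches. All lie upstream of the start, are written 5′ to 3′ in the direction of the gene, and have the ISRE matches in capitals.
Isg15 (chr4:156200859-156200918, minus strand): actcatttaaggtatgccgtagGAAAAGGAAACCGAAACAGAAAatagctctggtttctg
Bst2 (chr8:71537573-71537622, minus strand): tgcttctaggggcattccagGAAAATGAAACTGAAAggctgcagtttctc
Ifit1 (chr19:34640769-34640828, plus strand): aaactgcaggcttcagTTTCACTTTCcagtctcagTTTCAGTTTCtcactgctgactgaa
Ifit3 (chr19:34583359-34583428, plus strand): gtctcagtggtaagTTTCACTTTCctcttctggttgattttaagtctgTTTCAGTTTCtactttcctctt
Rsad2 (chr12:26456543-26456592, minus strand): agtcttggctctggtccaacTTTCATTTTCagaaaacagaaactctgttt
Gbp2 (chr3:142620583-142620632, plus strand): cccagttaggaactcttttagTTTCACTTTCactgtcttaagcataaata
B2m (chr2:122147527-122147586, plus strand): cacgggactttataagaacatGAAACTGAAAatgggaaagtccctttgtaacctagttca
In Isg15 the 3 matches overlap and start 78, 72 and 66 bases before the transcription start. In Bst2 the 2 overlapping matches start 130 and 124 bases before it, and a GAS match beginning 136 bases before the start overlaps the first of them. Ifit1 and Ifit3, neighbours on chromosome 19, each have a pair of separate matches in reverse orientation. B2m, at 139 bases before its start, was the 1 class I gene of 6 with a window that held these letters. Psmb9 and Tap1 share a start region: they are transcribed away from each other from starts 226 bases apart on chromosome 17, and the 225 bases between them are given because both genes are described below.
Psmb9–Tap1 (chr17:34187331-34187555, in the direction of Tap1): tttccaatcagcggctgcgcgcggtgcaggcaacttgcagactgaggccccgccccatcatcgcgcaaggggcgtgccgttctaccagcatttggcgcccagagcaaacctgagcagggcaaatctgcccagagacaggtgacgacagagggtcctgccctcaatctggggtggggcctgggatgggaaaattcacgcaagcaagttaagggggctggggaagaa
This stretch holds no match to either set of letters, which says only that these letters are not in it.

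**Figure D1:**
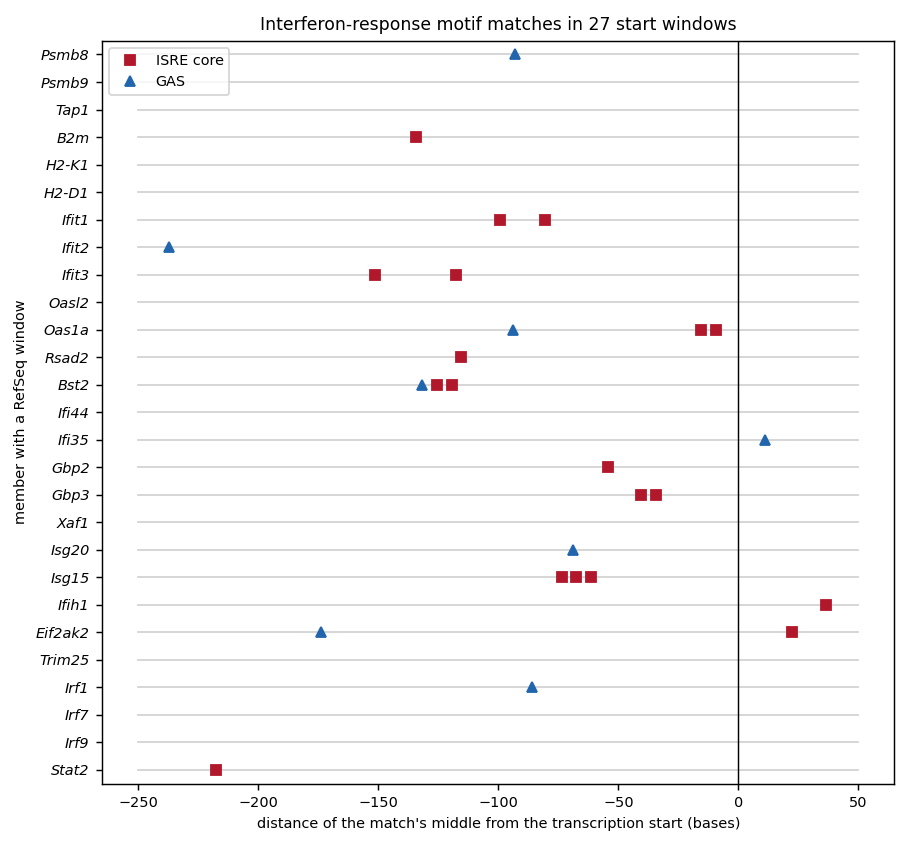
Distance in bases (x axis) from the transcription start to the middle of each ISRE core match (squares) and GAS match (triangles) in the 27 members with a RefSeq window (y axis, grey lines from 250 before to 50 after the start). ISRE matches are in 12 of the 27 windows and GAS matches in 8; among the class I genes at the top, B2m has an ISRE match and Psmb8 a GAS match.

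The 18 libraries held 5361250 to 10549233 counted reads, of which the ribosomal RNA row Rn45s took 7.02 to 24.4%. Levels below are counts per 1000000 reads (CPM) with TMM scaling factors over all 18 libraries, while log2 fold changes and p-values come from each comparison's own edgeR fit, with Benjamini-Hochberg adjustment over all genes tested. Standard errors (SE) were derived from that fit, as the absolute log2 fold change divided by the square root of its quasi-likelihood F statistic. A member is called where its adjusted p is under 0.05. The sorted populations differed in their defining markers: 9 stromal markers summed to 8236 to 18020 CPM in IntSCs and 333 to 2190 CPM in LECs, and 10 lymphatic markers to 264 to 558 CPM in IntSCs and 10307 to 16711 CPM in LECs. Of the lymphatic markers, 9 were called higher in LECs in WT and in KO mice. The exception was Pdpn, at log2 fold changes of 0.36 ± 0.30 in WT and -0.88 ± 0.23 in KO (SE). The highest stromal sum among LECs, 2190 CPM, was in WT LEC 1, and the other 6 LEC libraries reached at most 717 CPM. Lats1 lay at 0 to 30.1 CPM in WT IntSCs and 12.9 to 21.2 CPM in KO IntSCs, and Lats2 at 41.5 to 113 CPM and 79.99 to 130.03 CPM. The ranges of the libraries labelled WT and KO overlapped for both genes, and whether the counted 3′ ends lie inside the deleted part is not given in the sources used here, so these levels do not check the genotype labels.

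Class I genes were the abundant part of the list, and all 7 were detected in all 18 libraries. Their summed level was 6148 to 8381 CPM in WT IntSCs, 4545 to 7225 CPM in KO IntSCs, 12988 to 28423 CPM in WT LECs and 11762 to 17662 CPM in KO LECs. Every LEC library was therefore above every IntSC library in this sum. The 17 effectors summed to 1191 to 1578 CPM in WT IntSCs, 809 to 1345 CPM in KO IntSCs, 2141 to 3179 CPM in WT LECs and 1130 to 1869 CPM in KO LECs, so KO LECs overlapped both IntSC groups. The 5 sensing genes gave 160.1 to 268 CPM in WT IntSCs, 136 to 163 CPM in KO IntSCs, 319.6 to 526 CPM in WT LECs and 67.4 to 186 CPM in KO LECs. WT LECs thus had the highest level of these 3 sums with no overlap with the IntSC groups. Between 32 and 36 of the 36 members had at least 1 read in a library.

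**Figure D2:**
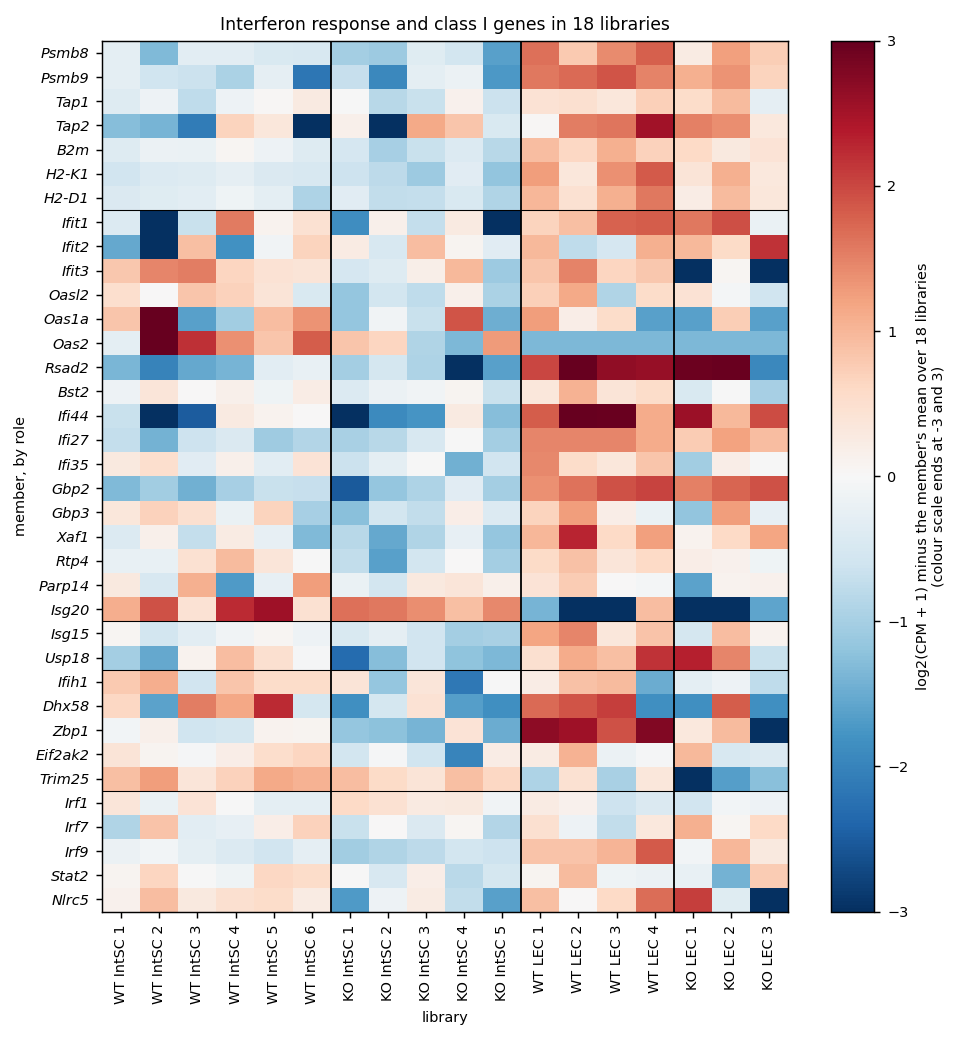
Heat map of the 36 members (rows, by role from class I genes at the top to transcription regulators at the bottom) in the 18 libraries (columns, by group). Colour is log2(CPM + 1) minus the member's mean over the 18 libraries, cut at -3 and 3; class I genes, Rsad2, Ifi27 and Gbp2 are redder in the LEC columns, and Trim25 and Isg20 are bluer there.

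In IntSCs, comparing KO with WT, most members had a lower level in the libraries labelled KO, but no member passed the test. All 36 were tested, 32 had a log2 fold change below 0 (49.8% of the 12421 genes tested had one), and the median was -0.51, against 0.00 for all genes. Of all genes tested 0.853% were called higher and 0.62% lower, and of the members 0 and 0. At an unadjusted p under 0.05 there were 11 members, all lower (5.41% of all genes were lower at that p): B2m, Rtp4, Ifit3, Oasl2, Irf9, Ifi35, Isg15, Eif2ak2, Stat2, H2-K1 and Usp18. By role, 6 of 7 class I genes, 15 of 17 effectors, both ISG15 genes, 5 of 5 sensing genes and 4 of 5 transcription regulators were below 0, with medians of -0.23, -0.69, -0.97, -0.76 and -0.54. The class I genes thus had the smallest median difference of the 5 roles.

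B2m, the light chain that every class I molecule needs at the surface, had the smallest p. It ranged from 1274 to 1738 CPM in WT IntSCs with a median of 1470.3, and stood at 1182, 838, 1045, 1247 and 937 CPM in KO IntSCs. The groups did not overlap, by a gap of 1274 against 1247 CPM (1.2% of all genes tested had KO libraries all below WT libraries). Its log2 fold change was -0.47 ± 0.15 (SE, n = 6 and 5), 1.38 times lower, with an adjusted p of 0.175 in edgeR's quasi-likelihood test. H2-K1, a classical class I heavy chain, ranged from 3011 to 3737 CPM in WT IntSCs with a median of 3335 and stood at 2922, 2578, 2109, 3516 and 1970.3 CPM in KO IntSCs. Here 1 KO library, KO IntSC 4, lay inside the WT range and the other 4 below it, and the log2 fold change was -0.35 ± 0.16 (SE).

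Among the effectors, Rtp4, an interferon-induced chaperone-like protein, ranged from 34.2 to 78.1 CPM in WT IntSCs with a median of 45.6 and stood at 23.4, 12.3, 26.8, 40.1 and 19.3 CPM in KO IntSCs. Its log2 fold change was -0.996 ± 0.33 (SE), 1.99 times lower, with an edgeR adjusted p of 0.187. Ifit3, which binds viral RNA together with IFIT1, ranged from 54.6 to 123 CPM with a median of 69.3 in WT IntSCs and stood at 29.2, 31.4, 47.0, 83.2 and 19.0 CPM in KO IntSCs. For both genes KO IntSC 4 was the library inside the WT range and the other 4 lay below it. Oasl2, a 2′-5′ oligoadenylate synthetase-like protein, had a log2 fold change of -1.0005 ± 0.38 (SE) and Ifi35, an interferon-induced leucine zipper protein, one of -0.69 ± 0.27 (SE), with edgeR adjusted p of 0.286 and 0.329. Irf9, a transcription regulator, ranged from 112 to 158 CPM in WT IntSCs and from 81.1 to 114 CPM in KO IntSCs, with a log2 fold change of -0.48 ± 0.18 (SE) and an edgeR adjusted p of 0.297. The 4 members above 0, named after their values were seen, were Tap2 at 0.85 ± 0.87, Ifit2 at 0.45 ± 0.94, Irf1 at 0.30 ± 0.18 and Ifi27 at 0.22 ± 0.26 (log2 fold change ± SE).

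KO IntSC 4 was the only library whose omission added calls in this comparison. Of 34 members with a mean of at least 5 CPM over all libraries, it held the highest KO IntSC value for 18. Without it, 2 members were called lower, Ifit3 at -1.37 with an adjusted p of 0.0329 and Zbp1, a sensor of left-handed nucleic acid, at -1.24 with an adjusted p of 0.0352 (edgeR). Marker lists moved in this comparison too: the stromal sum was 11862 to 18020 CPM in WT IntSCs and 8236 to 13325 CPM in KO IntSCs. Of the 9 stromal markers, 8 were below 0 in KO and 1 above 0. Col3a1 was called lower, at -0.92 ± 0.23 (SE, adjusted p = 0.0438 in edgeR). Pdgfrb was higher in every KO library than in any WT library, at 0.86 ± 0.23 (SE), but was not called. The lymphatic sum was 264 to 441 CPM in WT IntSCs and 469 to 558 CPM in KO IntSCs, without overlap, while Prox1, which defines lymphatic cells, reached at most 0.172 CPM in any IntSC library. Of the 9 lymphatic markers tested here, 5 were above 0 in KO and 4 below 0, and none was called. The 12 leukocyte markers (4 to 9 detected in a WT library, 6 to 10 in a KO library) summed to 20.9 to 48.3 CPM in WT IntSCs and 18.9 to 41.6 CPM in KO IntSCs, with Cd3e at 0 in 5 of 6 and 5 of 5 libraries and Ptprc at most 4.91 CPM. Their part in the members' levels was not tested. In such bulk samples, fewer cells of a type and less RNA per cell cannot be told apart.

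In LECs, comparing KO with WT, 29 of 35 tested members were below 0 (51.7% of the 10639 genes tested), the median was -0.51 against -0.03 for all genes, and again no member was called (0.0282% of all genes were called higher and 0.0376% lower). Oas2 was not tested, since none of the 7 LEC libraries held a read of it. At an unadjusted p under 0.05 there were 2 members, Bst2 and Ifit3, both lower (5.01% of all genes were lower at that p). KO libraries lay all below WT libraries for 8 members, Bst2, Ifit3, Ifi35, Zbp1, B2m, Psmb9, Trim25 and Rtp4, 22.9% of those tested (6.45% of all genes). By role, 6 of 7 class I genes, 13 of 16 effectors, 1 of 2 ISG15 genes, 5 of 5 sensing genes and 4 of 5 transcription regulators were below 0, with medians of -0.47, -0.52, -0.20, -1.18 and -0.11.

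Bst2, tetherin, which holds budding virions at the cell surface, stood at 1047, 1690.5, 1081 and 1212 CPM in WT LECs and at 603, 814 and 411 CPM in KO LECs. Its log2 fold change was -0.97 ± 0.27 (SE, n = 4 and 3), 1.96 times lower, with an unadjusted p of 0.00301 and an adjusted p of 0.291 in edgeR. Its adjusted p was 0.0204 in DESeq2 and 0.0191 in an edgeR fit with all 4 groups, so the call turned on the test. Ifit3 stood at 74.7, 119, 65.7 and 74.0 CPM in WT LECs and at 0.279, 43.5 and 3.60 CPM in KO LECs, so that 2 of the 3 KO libraries were close to 0 and KO LEC 2 was not. Its log2 fold change was -2.32 ± 1.06 (SE), with an edgeR adjusted p of 0.621. Zbp1 also ranged widely among KO LECs and did not overlap WT LECs, with 342, 312, 198 and 364 CPM in WT LECs against 65.1, 102 and 0.248 CPM in KO LECs, and a log2 fold change of -2.37 ± 1.14 (SE).

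Among class I genes in LECs, H2-K1 stood at 10702, 5696, 11622 and 16022 CPM in WT and at 5817, 9404 and 5602 CPM in KO. The groups overlapped through WT LEC 2, and the log2 fold change was -0.59 ± 0.28 (SE) with an edgeR adjusted p of 0.667. B2m stood at 3166, 2571, 3506 and 2712 CPM in WT and at 2534, 2052 and 2199 CPM in KO, which did not overlap, with a log2 fold change of -0.33 ± 0.18 (SE). Ifi35 and Irf9, the other members with a small p, had log2 fold changes of -0.97 ± 0.45 and -0.66 ± 0.34 (SE), with edgeR adjusted p of 0.635 and 0.723. Other lists differed as well: the stromal sum was 663 to 2190 CPM in WT LECs and 333 to 580 CPM in KO LECs, and that of 7 blood endothelial markers 841 to 1005 CPM and 603 to 635 CPM, neither overlapping. Of the 6 blood endothelial markers tested, 4 were below 0 and 2 above 0 in KO, and none was called. Emcn and Cd300lg, both called higher in WT LECs than in WT IntSCs, were at log2 fold changes of -0.78 ± 0.24 and -0.65 ± 0.29 (SE). The 2 above 0 were Plvap at 0.25 and Ptprb at 0.13. The leukocyte sum was 0.1 to 43.3 CPM in WT LECs (1 to 6 of 12 markers detected) and 0.413 to 46.4 CPM in KO LECs (2 to 4 detected), and that of 8 epithelial markers 2.1 to 29.2 CPM and 15.5 to 128 CPM, with Cd3e and Cd79a at 0 in all 7 LEC libraries. The part of these markers in the members' levels was not tested.

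**Figure D3:**
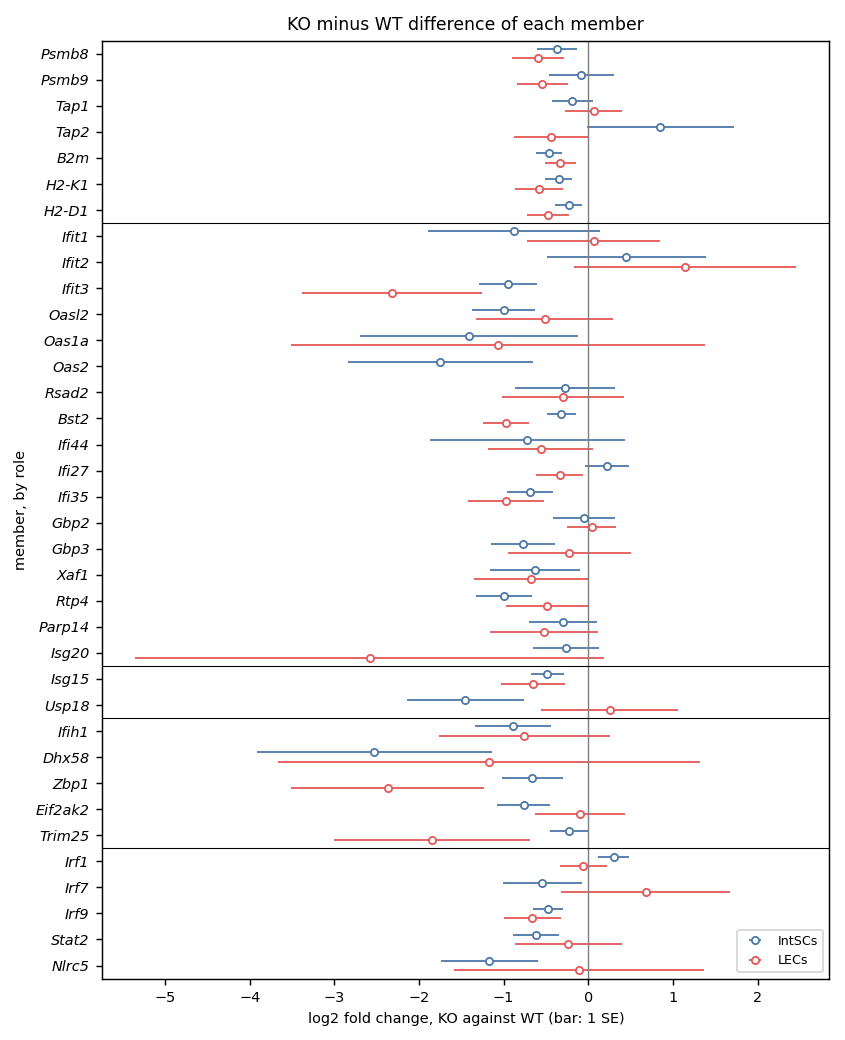
Log2 fold change of KO against WT (x axis) for each member (y axis, by role) in IntSCs (blue) and LECs (red), with bars of 1 SE; open symbols mark adjusted p of 0.05 or more, which holds for every point. Of the points, 32 of 36 in IntSCs and 29 of 35 in LECs lie left of 0, and Oas2 has no LEC point.

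The 2 genotype comparisons share no library. Of the 35 members tested in both, 26 (74.3%) were below 0 in both and 1 above 0 in both, and of all 10185 genes tested in both, 26.4% were below 0 in both and 25.2% above 0 in both. Single members had values of different size in the 2 cell types: Ifit3 was at -0.95 in IntSCs and -2.32 in LECs, Zbp1 at -0.66 and -2.37, and Bst2 at -0.32 and -0.97, whereas Rtp4 was at -0.996 and -0.49 (log2 fold changes). Usp18, which removes ISG15 from proteins and restrains the type I receptor, was at -1.46 ± 0.69 in IntSCs and 0.25 ± 0.81 in LECs (SE).

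Whether these differences were larger than the spread was tested by the interaction of genotype and cell type, with a positive value where the KO minus WT difference was higher in IntSCs than in LECs. No member was called (1.42% of 14015 genes were called in the positive and 0.278% in the negative direction), and 2 members had an unadjusted p under 0.05 (15.8% of all genes), with a member median of 0.04 against 0.24 for all genes. Bst2 was at 0.72 ± 0.31 (SE) with an unadjusted p of 0.0285 and an adjusted p of 0.245, and Trim25, the ubiquitin ligase of the RIG-I pathway, at 1.70 ± 0.79 (SE) with 0.0417 and 0.292 (edgeR). Ifi27 at 0.62 ± 0.38, Zbp1 at 1.77 ± 1.12, Usp18 at -1.64 ± 1.06 and Isg20 at 2.42 ± 1.73 (SE) had the next smallest p. Leaving out KO LEC 2 added 1 call here, Ifit3 at 4.44 with an adjusted p of 0.00467 (edgeR). The value of Oas2 cannot be estimated, since both LEC groups were at 0.

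More members were called between cell types than between genotypes. In WT mice, 14 of 36 members were called higher in LECs than in IntSCs (38.9%, against 10.3% of 12203 genes) and 2 lower (5.56%, against 12.3%), and the median of the members was 0.69 against -0.04 for all genes. LEC libraries lay all above IntSC libraries for 14 members, again 38.9% (9.65% of all genes). Class I presentation was called higher for 6 of 7 genes, all but Tap1, with a median of 1.73. The other called counts were 5 higher and 1 lower of 17 effectors, 1 higher of 2 ISG15 genes, 1 higher and 1 lower of 5 sensing genes, and 1 higher of 5 transcription regulators.

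H2-K1 was at 3011 to 3737 CPM in the 6 WT IntSC libraries and at 5696 to 16022 CPM in the 4 WT LEC libraries, a log2 fold change of 1.73 ± 0.22 (SE, n = 4 and 6), 3.31 times higher, with an adjusted p of 3.51e-05 (edgeR). H2-D1, the other classical heavy chain here, rose by 1.48 ± 0.21, and B2m by 1.05 ± 0.17 (log2 ± SE), so the light chain and both heavy chains were 2.07 to 3.31 times higher in LECs. Psmb8 and Psmb9, subunits that replace standard ones in the immunoproteasome, were 3.90 and 5.31 times higher, with log2 fold changes of 1.96 ± 0.25 and 2.41 ± 0.32 (SE). Psmb9 ranged from 13.7 to 54.1 CPM in WT IntSCs and stood at 197, 216, 244 and 185 CPM in WT LECs. Tap1, which shares the start region with Psmb9, was at 60.9 to 125 CPM in WT IntSCs and 139.5, 145, 130.2 and 171 CPM in WT LECs, also without overlap, but with a smaller log2 fold change of 0.67 ± 0.24 (SE) and an edgeR adjusted p of 0.0597, or 0.0345 without WT IntSC 6. Tap2, its partner, ranged from 13.1 to 249 CPM in WT IntSCs and from 160.1 to 895 CPM in WT LECs.

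Gbp2, a guanylate-binding GTPase that attacks the vacuoles of intracellular pathogens, had the smallest p of all members. It ranged from 20.04 to 35.1 CPM in WT IntSCs with a median of 27.1, and stood at 147, 176, 215 and 233 CPM in WT LECs. The groups were far from overlapping, and the log2 fold change was 2.81 ± 0.26 (SE), 7 times higher, with an adjusted p of 1.44e-06 (edgeR). Its neighbour Gbp3 was at 0.32 ± 0.43 (SE) and was not called. Rsad2, viperin, an enzyme that makes a chain-terminating nucleotide, ranged from 6.88 to 26.1 CPM in WT IntSCs and stood at 127, 332, 200.4 and 194 CPM in WT LECs, a log2 fold change of 3.83 ± 0.40 (SE), 14.3 times higher.

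Zbp1 ranged from 34.4 to 58.6 CPM in WT IntSCs and stood at 342, 312, 198 and 364 CPM in WT LECs, 6.30 times higher, with a log2 fold change of 2.65 ± 0.25 (SE). Ifi27, a mitochondrial and nuclear membrane protein, was 4.69 times higher, with 33.9 to 67.8 CPM in WT IntSCs and 199 to 256 CPM in WT LECs. Irf9 rose by 1.52 ± 0.23 (log2 ± SE), whereas Stat2, another regulator of the list, was at -0.07 ± 0.34 and the interferon-induced factors Irf1 and Irf7 at -0.14 ± 0.23 and -0.12 ± 0.60, none of them called. The 3 IFIT genes on chromosome 19 were not called either, with Ifit1 at 0 to 36.2 CPM in WT IntSCs and 19 to 43.2 CPM in WT LECs, and Ifit3 at 54.6 to 123 CPM in WT IntSCs and 65.7 to 119 CPM in WT LECs.

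Of the members called higher in WT LECs outside the 10 with the smallest p, named after their values were seen, Isg15 ranged from 104 to 158 CPM in WT IntSCs and stood at 345, 420.1, 194 and 275 CPM in WT LECs, a log2 fold change of 1.18 ± 0.23 (SE, adjusted p = 0.00166 in edgeR). Ifi44, an interferon-induced protein, ranged from 0 to 14 CPM in WT IntSCs and from 25.9 to 133 CPM in WT LECs, and Xaf1, an antagonist of the apoptosis inhibitor XIAP, from 6.32 to 20.7 CPM and from 26.6 to 87.6 CPM, so that neither overlapped. Their log2 fold changes were 3.28 ± 0.87 and 1.78 ± 0.49 (SE), and that of Tap2, whose groups overlapped, was 2.27 ± 0.65 (SE). Xaf1 lost its call without WT LEC 2, and Tap2 without WT LEC 2, 3 or 4. The sum of the leukocyte markers overlapped between WT IntSCs and WT LECs (20.9 to 48.3 and 0.1 to 43.3 CPM). That of the 7 blood endothelial markers did not (204 to 388 and 841 to 1005 CPM), but 4 of them were above 0 and 3 below 0. Only Emcn and Cd300lg were called, both higher in WT LECs, at log2 fold changes of 5.90 ± 0.30 and 3.89 ± 0.46 (SE). Plvap, Esm1 and Aplnr were at -0.73, -0.29 and -1.52. The part of these markers in the members' levels was not tested.

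The 2 members called lower in WT LECs, named after their values were seen, were Oas2, a 2′-5′ oligoadenylate synthetase, and Trim25. Oas2 was at 1.06 to 19.8 CPM in the 6 WT IntSC libraries, 7.84 CPM over the pooled group, and had 0 reads in the 4 WT LEC libraries. Against a floor of 3 counts over the LEC group, 0.0764 CPM, it was at least 103-fold lower (adjusted p = 0.00559 in edgeR). Trim25 ranged from 51.6 to 96.4 CPM in WT IntSCs and stood at 20.6, 54.8, 19.8 and 51.1 CPM in WT LECs, with a log2 fold change of -1.07 ± 0.37 (SE) and an adjusted p of 0.0491, a call that was lost on leaving out any of 7 libraries, 5 of WT IntSCs and WT LEC 1 or 3.

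In KO mice, 10 of 36 members were called higher in LECs than in IntSCs (27.8%, against 9.11% of 12758 genes) and 2 lower (5.56%, against 16.8%), with a median of 0.92 against -0.21 for all genes. LEC libraries lay all above IntSC libraries for 11 members (11.4% of all genes). Class I presentation was called higher for 5 of 7 genes, all but Tap1 and Tap2, with a median of 1.15. Gbp2 stood at 8.89, 24.4, 29.1, 44.1 and 26.96 CPM in KO IntSCs and at 161, 189 and 215 CPM in KO LECs, 7.02 times higher, with a log2 fold change of 2.81 ± 0.42 (SE) and an adjusted p of 0.000908 (edgeR). B2m, H2-K1 and H2-D1 rose by 1.10 ± 0.18, 1.40 ± 0.24 and 1.15 ± 0.21, Psmb8 and Psmb9 by 1.66 ± 0.32 and 1.87 ± 0.44, and Ifi27 and Irf9 by 1.59 ± 0.29 and 1.25 ± 0.27 (log2 ± SE).

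Rsad2 was called as well, at 3.74 ± 0.94 (SE), although KO LEC 3 at 7.32 CPM lay among the KO IntSC libraries (1.34 to 21.0 CPM) and the other KO LEC libraries stood at 244 and 246 CPM. Usp18, at 1.70, 4.52, 7.93, 4.77 and 4.25 CPM in KO IntSCs and 66.6, 35.7 and 7.44 CPM in KO LECs, was called at 2.97 ± 0.84 (SE) and lost the call without KO LEC 1 and without any of KO IntSC 1, 2 and 5. Called lower, and named after their values were seen, were Trim25, with 52.2 to 76.9 CPM in KO IntSCs and 0.419, 12.1 and 16.3 CPM in KO LECs, and Isg20, an exonuclease, with 19.7 to 34.0 CPM in KO IntSCs and 0, 0 and 2.73 CPM in KO LECs. Trim25 and Isg20 lost the call when any 1 KO IntSC library was left out, and Trim25 also without KO LEC 2. Oas2, with 91 reads in KO IntSCs and 0 in KO LECs, was at least 20.1-fold lower against a floor of 0.12 CPM and was not called (adjusted p = 0.0566 in edgeR). Leaving out 1 library added calls for Oas2 (KO IntSC 4), Ifi44 (KO IntSC 1 or 4), Isg15 (KO LEC 1), Ifit3 (KO LEC 2, lower) and Tap1 (KO LEC 3), and in WT for Isg20 (WT LEC 4, lower).

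**Figure D4:**
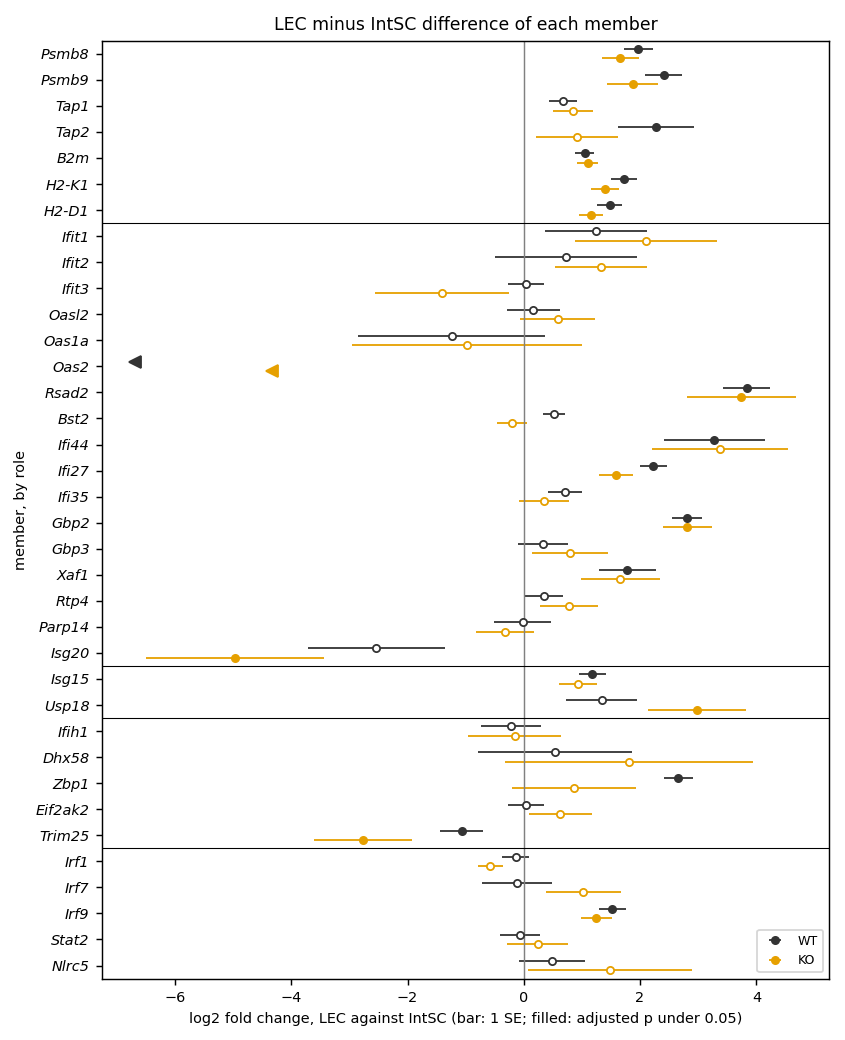
Log2 fold change of LECs against IntSCs (x axis) for each member (y axis, by role) in WT (black) and KO mice (orange), with bars of 1 SE and filled symbols for an adjusted p under 0.05. Triangles give the bound for Oas2, which had no read in LECs; all 7 class I genes lie right of 0 in both genotypes.

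The cell type comparisons of WT and of KO mice share no library, and 9 members were called higher in both: B2m, H2-K1, H2-D1, Psmb8, Psmb9, Gbp2, Rsad2, Ifi27 and Irf9. They were 64.3% of the 14 called in WT and 90% of the 10 called in KO, where for all genes tested in both the shares were 61.0% and 66.3%. Trim25 was the 1 member called lower in both. With the replicate number in the titles as a block in the fit, H2-D1, Psmb8, Psmb9, Rsad2 and Irf9 lost the call in KO mice. Trim25 then lost its call in both genotypes. Zbp1 was called in WT mice and stood at 0.87 ± 1.07 (SE) in KO mice, and the difference itself, the interaction given above, did not pass the test.

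**Figure D5:**
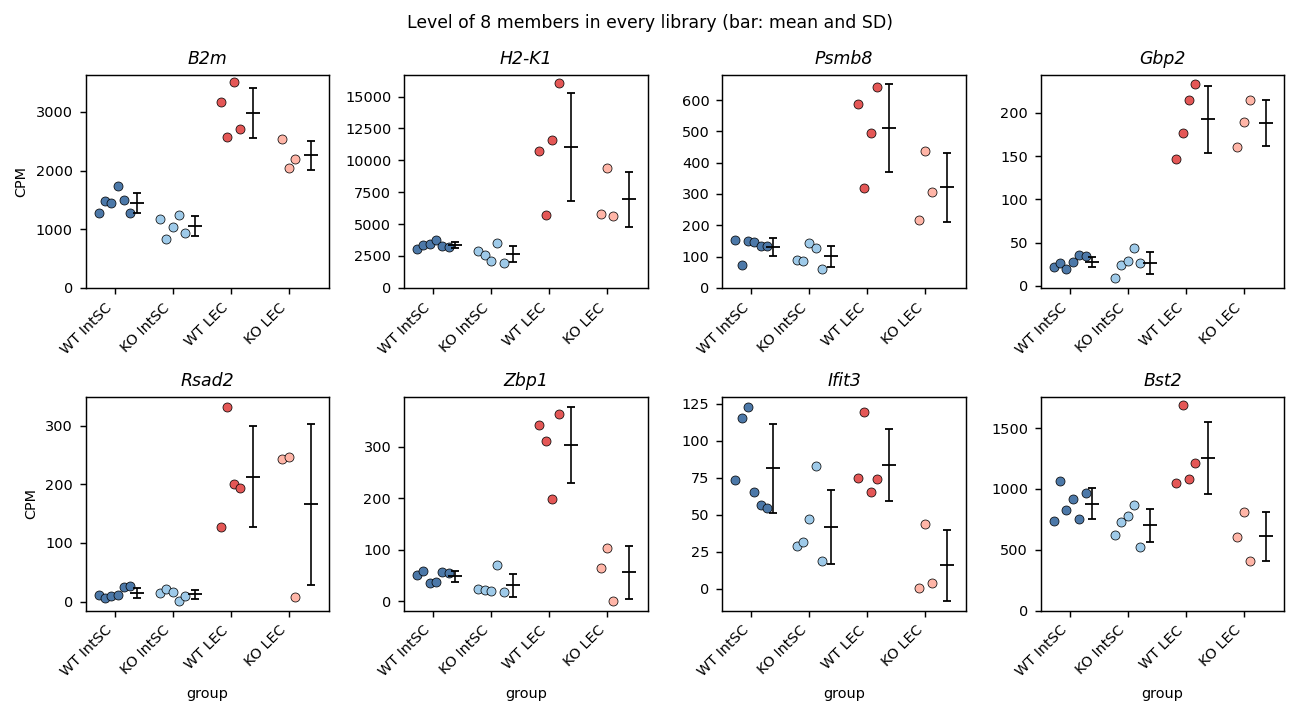
CPM (y axes, linear) of 8 members in each of the 18 libraries by group (x axes), with the mean and SD beside the points. LEC libraries stand apart from IntSC libraries for B2m, H2-K1, Psmb8 and Gbp2. For Rsad2, Zbp1, Ifit3 and Bst2 the lowest KO LEC value lies within or below the IntSC range. Ifit3 and Bst2 also overlap between WT IntSCs and WT LECs.

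Other genes of the pathway, from lists of names chosen with earlier results of these data known, were read in the same fits. Reads of the 6 interferon genes listed (Ifnb1, Ifng, Ifnl2, Ifnl3, Ifne and Ifnk) were 0 in all 18 libraries. With 5361250 to 10549233 reads a library, 3 counts correspond to at most 5.6e-05% of a library, so none was detected above that level. Of 10 genes of reception and signal relay, 9 were tested in each genotype comparison and none was called. The type I receptor chains were present throughout: Ifnar1 at 30.9 to 75.2 CPM and Ifnar2 at 66.4 to 130.3 CPM in WT IntSCs, and 38.2 to 70.7 CPM and 102 to 182 CPM in WT LECs. Jak1, the kinase shared by the receptors, ranged from 129 to 388 CPM over all libraries. In KO LECs Jak2 stood at 0, 0 and 0.744 CPM, against 15.4 to 51.1 CPM in KO IntSCs and 1.24, 26.3, 15.9 and 9.10 CPM in WT LECs, and it was called in the interaction (5.88 ± 1.42, SE, adjusted p = 0.0314 in edgeR).

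Of 23 further interferon-induced genes, 22 were tested in IntSCs and 18 of them were below 0 in KO, with 2 called lower and 1 higher (all genes, 0.62% and 0.853%). Lgals3bp, a secreted glycoprotein, was at 156 to 339.8 CPM in WT IntSCs and at 126, 96.8, 87.9, 104 and 87.7 CPM in KO IntSCs, and fell by 1.30 ± 0.21 on the log2 scale (SE, adjusted p = 0.00133 in edgeR). Ifitm3, which blocks viral entry at membranes, ranged from 1398 to 1947 CPM in WT IntSCs and from 961 to 1355 CPM in KO IntSCs, and fell by 0.65 ± 0.15 on the log2 scale (SE, adjusted p = 0.0339 in edgeR). Samhd1, which hydrolyses deoxynucleotides, moved the other way, from 62.3 to 93.3 CPM in WT IntSCs to between 138 and 211 CPM in KO IntSCs, a log2 rise of 1.18 ± 0.19 (SE, adjusted p = 0.00188 in edgeR). None of the 21 tested in LECs was called in the genotype comparison, and Lgals3bp and Samhd1 were called in the interaction at -1.84 ± 0.39 and 2.15 ± 0.53 (SE, adjusted p = 0.0142 and 0.0353 in edgeR). Of 12 further class I presentation genes, none was called in either genotype comparison, with 8 below 0 in IntSCs and 9 in LECs. In WT mice 6 of these 12 were called higher in LECs and none lower (all genes, 10.3% and 12.3%), and in KO mice 3 and none (all genes, 9.11% and 16.8%).

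Members at low level carry little information at this depth. Dhx58, a regulator of RNA sensing, ranged from 0.172 to 16.1 CPM in WT IntSCs and had no read in 2 of 5 KO IntSC libraries, 1 of 4 WT LEC libraries and 2 of 3 KO LEC libraries. Its KO minus WT log2 fold change in IntSCs was -2.53 ± 1.39 (SE), the lowest of the members and among the least precise. Oas1a ranged from 0 to 28.2 CPM in WT IntSCs and from 0 to 6.47 CPM in WT LECs, Nlrc5 from 11.9 to 21.3 CPM and from 10.7 to 36 CPM, and Ifit2 from 0 to 14.5 CPM and from 3.83 to 16.1 CPM. All 3 overlapped between the cell types. The sensors Ifih1 (MDA5) and Eif2ak2 (PKR), at 13.5 to 44.9 CPM and 51 to 82.2 CPM in WT IntSCs, had cell type differences in WT of -0.22 ± 0.52 and 0.04 ± 0.31 on the log2 scale (SE).

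In both KO groups 1 library held the highest value for many members. KO IntSC 4 held the highest of the 5 KO IntSC values for 18 of 34 members with at least 5 CPM on average. KO LEC 2 held the highest of the 3 KO LEC values for 18 of these 34, and KO LEC 1 and KO LEC 3 held the lowest for 15 and 13. In WT LECs the highest values were split, 13 in WT LEC 2 and 13 in WT LEC 4. In WT IntSCs no library held the highest value for more than 10 of the 34. Tap2 had a wide range for a class I gene, from 13.1 to 249 CPM in WT IntSCs and from 13.7 to 345 CPM in KO IntSCs, while H2-K1 in WT IntSCs was at 3343 ± 240.3 CPM (SD, n = 6). Near-identical gene copies could share reads for few members: of the 50-base words in the last 300 bases of the transcript, 21.1% of those of Oas1a and 17.1% of those of H2-D1 occurred in another gene, at most 1.2% for Isg15, H2-K1 and Ifit3, and none for the other 31. Oas1a and H2-D1 are therefore uncertain in level, and how the counting treated shared reads is not given in the sources used here.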

How the data were processed

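Total RNA of sorted cells was made into Quant-Seq 3′ libraries and sequenced on a NextSeq 500. The authors deposited raw read counts per gene, 1 table per library with 23282 rows; 35 symbols on more than 1 row were summed. The submitters' processing notes name mm10, Bowtie2 and edgeR without versions, and the study's methods name TopHat and Cufflinks; the counting program and annotation are not given in the sources used here. Libraries held 5361250 to 10549233 counts, and the precision of low genes is limited by counting.

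Libraries were grouped by their labels. For each comparison, rows passing filterByExpr were scaled by TMM and tested with edgeR 4.0.16 (robust quasi-likelihood, R 4.3.3), for KO against WT in each cell type, LECs against IntSCs in each genotype, and the interaction over all 18 libraries. P-values were adjusted by the Benjamini-Hochberg method over all genes tested, with a threshold of 0.05. A fold change involving a group without reads was computed from a floor of 3 counts over the group. The fit was tested on simulated data. Members, marker lists and pathway lists were chosen with earlier results of these data known. An item of the pathway lists is not reported here. Per comparison the text names the members past the threshold (the 10 with the smallest p where more passed, the 6 with the smallest p where fewer than 6 passed), and any member's level may be described; other members given with a fold change were picked after their values were seen. Promoter windows came from RefSeq (GRCm38.p6) and were missing for 9 members, Oas2, Usp18, Ifi27, Tap2, Nlrc5, Rtp4, Parp14, Dhx58 and Zbp1. Alternatives were RLE factors, 2 other count filters, DESeq2 1.42.0, removal of Rn45s, a replicate block, 1 fit of all 4 groups, and leaving out each library. Figures were drawn with matplotlib 3.10.9.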

Additional observations from a re-analysis of the deposited data

Results flagged for a closer look

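In groups of 4 to 6 libraries, 1 library stood apart from the rest of its group, by Dixon's 95% critical value, in 9 of 107 groups of member levels examined. For independent, normal values chance gives about 1 in 20. CPM values of members from the same libraries need not be either, so the 9 are listed without a comparison to chance. KO LECs, with 3 libraries, were not examined. WT IntSC 2 had the highest Oas1a (28.2 CPM, next 6.96 CPM) and the lowest Psmb8 (73.6 CPM, next 132 CPM). KO IntSC 4 had the highest Oas1a (10.6 CPM, next 1.92 CPM) and Zbp1 (70.1 CPM, next 22.9 CPM) of its group. WT LEC 2 had the highest Ifit3 (119 CPM, next 74.7 CPM) and Stat2 (85.4 CPM, next 46 CPM). WT LEC 4 had the highest Irf9 (607 CPM, next 339 CPM) and Isg20 (20.2 CPM, next 3.23 CPM) and the lowest Ifi27 (199 CPM, next 255 CPM).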

How the results depend on the processing

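Members named by rule kept their sign under each alternative that gave a value; Ifit3 in LECs, KO against WT, was given no p-value by DESeq2. Members called between genotypes were 0 in the main test and, with DESeq2, 1 in IntSCs (B2m) and 1 in LECs (Bst2); a fit of all 4 groups gave 1 in LECs (Bst2). Leaving out each library gave 0 to 2 in IntSCs (2 without KO IntSC 4), 0 in LECs, 14 to 16 for LECs against IntSCs in WT, 9 to 13 in KO, and 0 to 1 for the interaction (1 without KO LEC 2). Replicate numbers in the titles were checked for pairing: same-numbered libraries had deviations correlated at -0.0579 to 0.0559 (IntSCs), -0.0228 to 0.0155 (LECs), 0.0221 to 0.0382 (WT) and -0.02 to 0.0333 (KO), none over 0.1. In WT the mean over same-numbered LEC and IntSC libraries was 0.0275, against -0.00549 for different numbers. Correlations this small cannot tell whether a shared number marks a shared animal, so pairing is not settled. With the replicate block, members called were 0 and 0 between genotypes, 12 against 16 in WT, 4 against 12 in KO and 0 for the interaction, and the block used up residual degrees of freedom. Members below 0 in KO were 29 to 32 in IntSCs and 25 to 32 in LECs over all settings. Calls over all genes moved more: 27 (all 4 groups) to 458 (DESeq2) against 183 in IntSCs, 99 to 186 leaving out a library; 0 to 538 against 7 in LECs (no filter 32, mean count of 10 or more 20, DESeq2 418, all 4 groups 538, replicate block 3); the replicate block gave 1596 against 2763 in WT, 895 against 3302 in KO and 16 against 238 for the interaction, where DESeq2 gave 1130 and leaving out KO LEC 2 or 3 gave 461 or 379. The cause was not tested. RLE factors moved the median interaction of all genes from 0.24 to 0.13.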
